A study of Homo sapiens with 4 samples.

Results

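MDM2, MDM4, PPM1D, CCNG1, RCHY1 and TP53INP1 limit or modify the tumour suppressor p53, and most of them are also switched on by it. They were examined in p53 ChIP-seq peak lists as a group of 6 genes, chosen by name and by position. The choice was made with earlier results of these data known. A deposited summit, the highest point of a peak, counted when it lay inside one of the genes or within 10 kb of it. The rule found 8 summits among the 13748 in all 4 lists. They fell at 3 of the 6 genes: TP53INP1, MDM2 and PPM1D.

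The study expressed p53 in H1299, an established human non-small-cell lung carcinoma line with no p53 of its own (genotype p53-/-). All libraries were precipitated with the p53 antibody DO-1 from chromatin cut with micrococcal nuclease and sonicated. One group, CASM34, expressed a p53 mutant of that name (2 libraries, CASM34 1 and CASM34 2), and the other expressed wild-type p53 (2 libraries, p53WT 1 and p53WT 2). The design asks how p53 occupancy compares between the forms. The series title speaks of cancer-associated synonymous mutations, which change a codon but not the amino acid. The labels give no drug, dose or time, do not say how p53 was expressed, and do not say whether replicates came from separate cultures, so any p-value measures only the spread between these libraries.

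In the textbook circuit, p53 activates the gene of its own ubiquitin ligase MDM2, which binds p53 and sends it to the proteasome. MDM4, a relative of MDM2, binds p53 and blocks its transactivation domain. PPM1D (Wip1) is a phosphatase that removes activating phosphates from p53 and from kinases of the damage response, CCNG1 (cyclin G1) brings a phosphatase to MDM2, and RCHY1 (Pirh2) is another ubiquitin ligase for p53. TP53INP1 acts in the opposite sense: it is a stress protein that helps kinases phosphorylate p53 and promotes cell death.

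The deposited lists held 2198 rows in CASM34 1, 3838 in CASM34 2, 2054 in p53WT 1 and 5658 in p53WT 2, with 1 row per summit. In both groups the library numbered 2 had the longer list and the lower median −log10 q, at 3.88 in CASM34 2 and 3.02 in p53WT 2, against 7.74 in CASM34 1 and 8.23 in p53WT 1. The lists carry no read counts, so depth is unknown, and a gene without a summit is one where no peak was listed, not one shown to lack p53. Fold and −log10 q are the authors' own values for a peak, and single peaks are ranked on them here only within a list. The medians above and a common threshold of −log10 q used below do set lists side by side.

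Sequences before RefSeq starts of MDM2 and PPM1D are shown first, because their peaks lay just past the first RefSeq start of each gene. RefSeq (GRCh38.p14) gave 12 windows of 250 bases before a start for 5 of the 6 genes. TP53INP1 had no window and was not searched. A full p53 site, meaning the p53 half-site consensus found in tandem with at most 3 mismatches in 20 bases and a spacer of 0 or 1 base, was searched in each window. The consensus is its own reverse complement, so both strands were covered. Capitals mark the matches. Each window ends at the base before its start, and the 3 printed here are on the plus strand.
MDM2 first start, chr12:68807922-68808171: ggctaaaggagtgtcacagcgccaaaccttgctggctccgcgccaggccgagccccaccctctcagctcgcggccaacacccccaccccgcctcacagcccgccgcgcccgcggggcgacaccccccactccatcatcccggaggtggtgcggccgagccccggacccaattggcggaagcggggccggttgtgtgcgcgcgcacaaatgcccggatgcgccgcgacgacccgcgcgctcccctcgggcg
MDM2 internal start, chr12:68808767-68809016: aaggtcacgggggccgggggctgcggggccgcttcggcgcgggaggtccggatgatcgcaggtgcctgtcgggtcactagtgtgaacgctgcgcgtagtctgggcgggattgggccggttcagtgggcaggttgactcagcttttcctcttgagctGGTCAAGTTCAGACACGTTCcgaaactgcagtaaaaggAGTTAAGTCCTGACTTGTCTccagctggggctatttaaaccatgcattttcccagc
PPM1D start, chr17:60599943-60600192: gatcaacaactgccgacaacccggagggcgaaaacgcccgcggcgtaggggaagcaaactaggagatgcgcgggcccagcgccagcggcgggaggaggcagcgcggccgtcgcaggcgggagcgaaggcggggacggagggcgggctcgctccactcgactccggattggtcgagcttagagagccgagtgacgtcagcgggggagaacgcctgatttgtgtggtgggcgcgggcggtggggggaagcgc

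Matches stood before the internal start of MDM2, the promoter long known as P2, through which p53 is known to drive MDM2. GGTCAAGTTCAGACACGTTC lay at chr12:68808923-68808942 with 2 mismatches to the consensus, and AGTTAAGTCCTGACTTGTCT at chr12:68808961-68808980 with 3. RefSeq lists this start at 2 positions close together, and their overlapping windows hold the same pair, so they count as a single observation. Of all 35116 windows of the same length 8.18% held a full site; the rule was chosen after the sequences were seen, so this share is a description and no comparison. A strict half-site, with no mismatch in 10 bases, was in 0 of the 12 windows and in 5.57% of all windows. No full site was in the window before the first MDM2 start, or in those of PPM1D, MDM4, CCNG1 and RCHY1. These matches describe letters in the reference, not binding. The printed windows lay outside the peaks, 83 and 270 bases from the MDM2 peak and 141 bases from the PPM1D peak. Whether the bases within the peaks hold a full site was not tested.

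At MDM2 (gene 4193, chromosome 12, 68808172 to 68850686, GRCh38) no summit was listed in CASM34 1 or CASM34 2. The p53WT lists held a single one, in p53WT 2, and none in p53WT 1. The peak ran from 68808255 to 68808496 with its summit at 68808329, 157 bp after the first start and 688 bp before the internal start at 68809017. Its fold was 4.92 and its −log10 q 3.50, and 56.6% of the rows of p53WT 2 had a lower −log10 q. It thus ranked near the middle of its list. The peak ended 426 bases short of the nearer of the p53 site matches, so the deposited interval held neither of them. The closest other gene was the pseudogene SZRD1P1, 2835 bp from the summit.

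At PPM1D (gene 8493, chromosome 17, 60600193 to 60666280) CASM34 1 and CASM34 2 again listed no summit. The only one was in p53WT 2, and p53WT 1 listed none. The peak ran from 60600334 to 60600678 with its summit at 60600394, 201 bp after the start. Its fold was 4.88 and its −log10 q 2.82, above 41.9% of the rows of that list. Another p53WT 2 summit, at 60678025, fell just outside the rule at 11.7 kb from PPM1D. It lay 174 bp inside the neighbouring gene BCAS3 and had a −log10 q of 1.35, above 1.61% of the rows.

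The place of the MDM2 and PPM1D summits was common in that list. Of the 1656 p53WT 2 summits within 1 kb of a RefSeq start, 78.0% lay after the start, at a median of 150 bp, with quartiles at 35 and 309 bp. In CASM34 2, 79.3% of 1042 such summits lay after the start, at a median of 172 bp. Both genes called in p53WT 2 alone therefore had their summit where gene-start summits of the list mostly were.

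TP53INP1 (gene 94241, chromosome 8, 94925972 to 94949378) was the only one of the 6 genes with summits in both groups. CASM34 1 listed 1 summit, CASM34 2 listed 2 and p53WT 2 listed 3, while p53WT 1 listed none. Summits per library averaged 1.5 ± 0.71 in CASM34 and 1.5 ± 2.12 in p53WT (SD, n = 2 each), a difference of 0 (exact two-sided permutation p = 1; the smallest that 2 libraries against 2 allow is 0.333). The groups overlapped, since the highest and the lowest count were both in p53WT.

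The CASM34 1 peak ran from 94949741 to 94950024, with a summit at 94949813. Its fold was 4.14 and its −log10 q 2.58, above 14.0% of the rows of its list. It was therefore among the weaker rows there.

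In CASM34 2 a wider peak, from 94949573 to 94950061, carried summits at 94949659 and 94949961. Their folds were 4.74 and 4.68, with −log10 q of 4.59 and 4.48, above 57.9% and 57.2% of the rows of that list.

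In p53WT 2 a peak from 94949482 to 94950031 carried summits at 94949653 and 94949921. Their folds were 4.41 and 4.82 and their −log10 q 3.03 and 3.86, above 50.1% and 63.5% of the rows. Both pairs of summits thus stood close to the middle of their lists.

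These peaks formed a single region of 580 bp, from 94949482 to 94950061, of which 284 bp were covered in CASM34 1, CASM34 2 and p53WT 2. The paired summits of CASM34 2 lay 6 and 40 bp from those of p53WT 2. The CASM34 1 summit fell between the pairs, 148 bp from the nearer summit of CASM34 2 and 108 bp from that of p53WT 2. All 5 summits were outside TP53INP1, from 275 to 583 bp beyond its end at the higher coordinate, which is the 5′ side of this minus-strand gene.

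p53WT 2 held a further peak that the other libraries did not list, from 94948925 to 94949273, with its summit at 94949199, 179 bp inside the gene. Its fold was 4.58 and its −log10 q 3.52. On either side of the gene's end p53WT 2 therefore had a peak. Both CASM34 libraries had a peak on the outer side only, and the other p53WT library had none on either side. When overlapping peaks of all lists were merged, 41.7% of the 7749 regions were in p53WT 2 alone, the most frequent pattern. With every list cut to 2054 rows, p53WT 2 kept none of its peaks here. The inner peak thus rests on a single list and does not separate the groups.

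TP53INP1 lies wholly within the span of NDUFAF6 (94895799 to 95118496), a gene for assembly of mitochondrial complex I. Every TP53INP1 summit was thus also inside NDUFAF6, but at least 53400 bp from its ends. Outside the rule, the closest summits were at 94896018 in CASM34 2 (−log10 q 2.55) and 94896026 in p53WT 2 (−log10 q 2.97), 30.0 and 29.9 kb from TP53INP1. They lay where NDUFAF6 and CCNE2, the gene of cyclin E2, overlap, 219 and 227 bp inside the NDUFAF6 end.

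**Figure D1:**
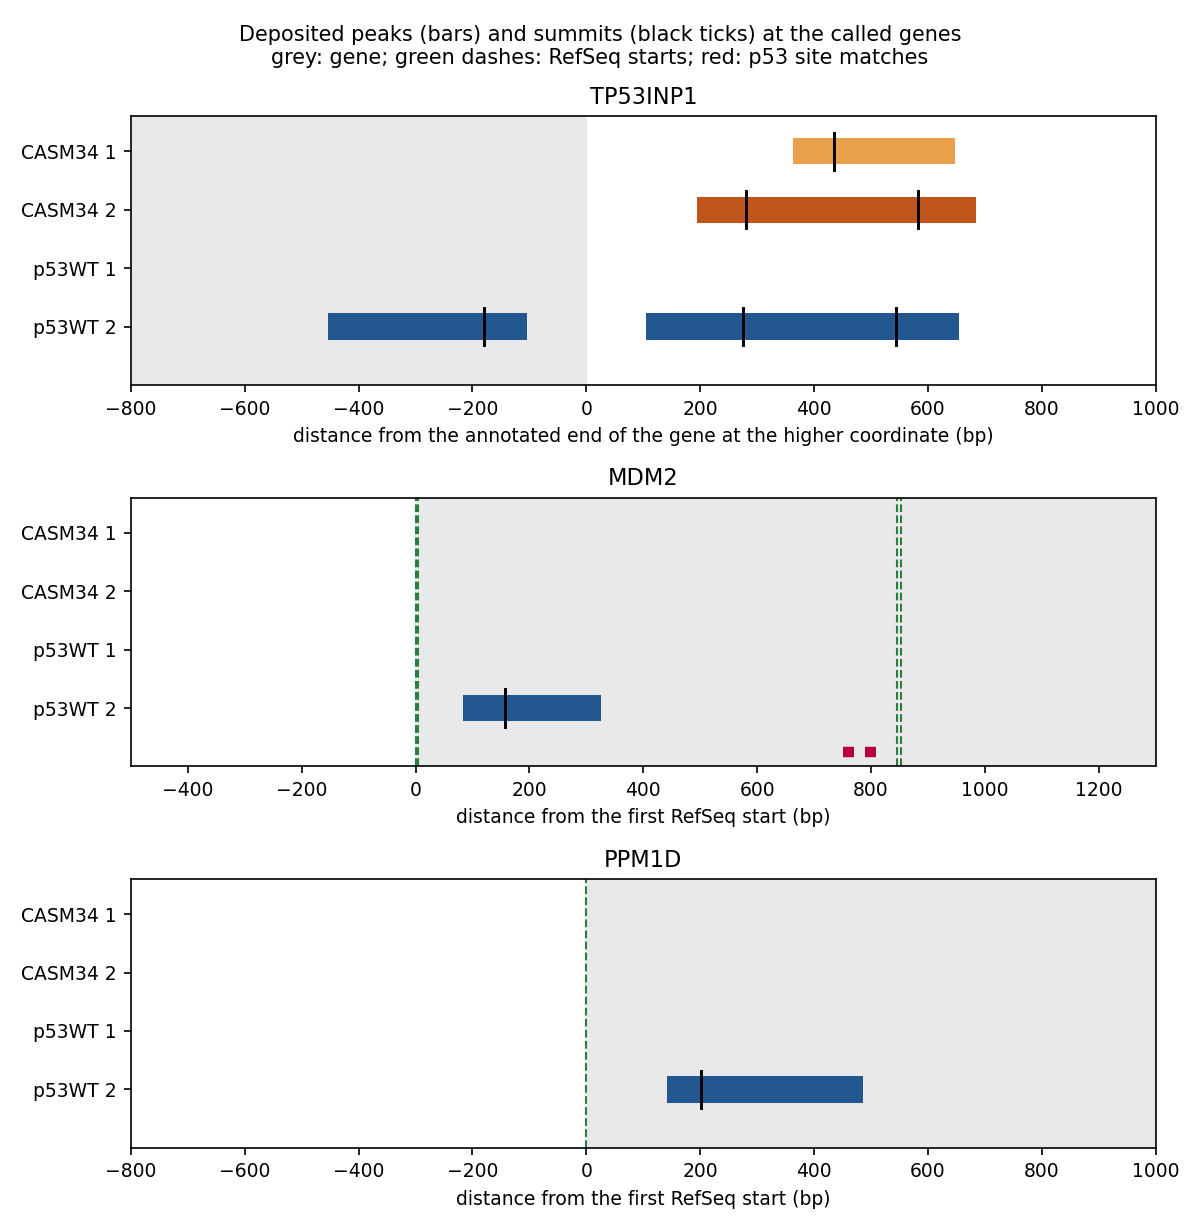
Peaks (bars) and summits (black ticks) of each library at TP53INP1, MDM2 and PPM1D, by distance in bp from the end of TP53INP1 at the higher coordinate or from the first RefSeq start of MDM2 and PPM1D; grey marks the gene, green dashes RefSeq starts and red the p53 site matches. At TP53INP1 the peaks of CASM34 1, CASM34 2 and p53WT 2 overlap over 284 bp, while at MDM2 the p53WT 2 peak stops 426 bases before the first red mark.

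**Figure D2:**
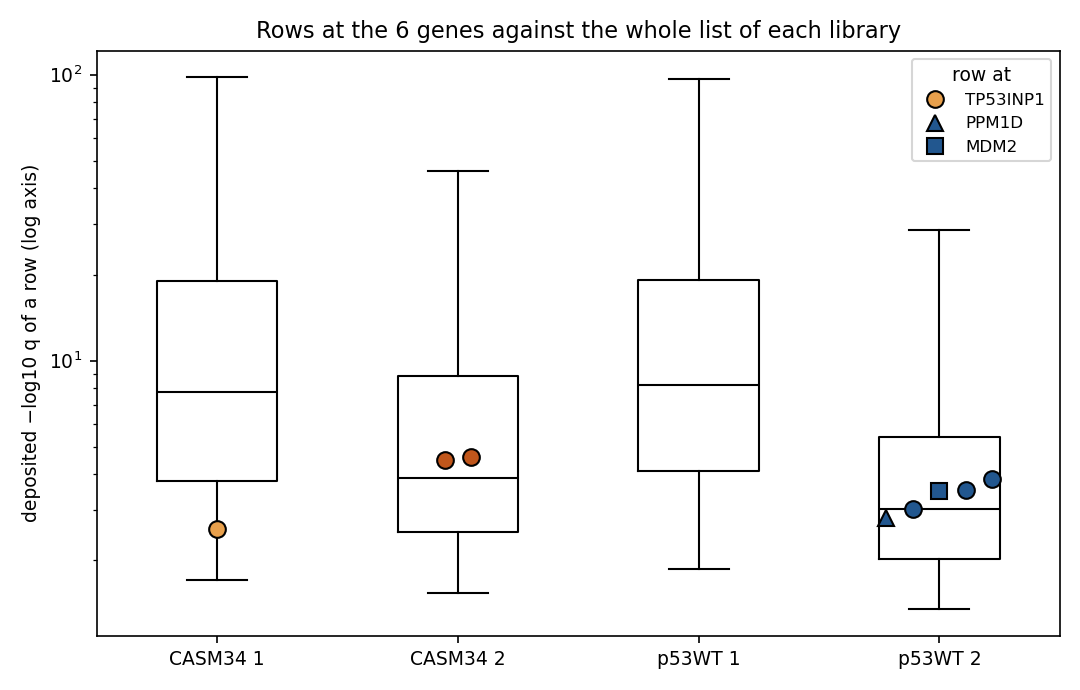
Deposited −log10 q (log axis) of each row at TP53INP1, MDM2 and PPM1D as points, over boxes for the whole list of each library (box, quartiles; line, median; whiskers, 5th to 95th percentile). The points of CASM34 2 and p53WT 2 lie inside the boxes, and the CASM34 1 point at 2.58 lies below its box.

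MDM4, CCNG1 and RCHY1 had no summit in any library. For MDM4 (gene 4194, chromosome 1, 204516406 to 204558120) the nearest summits were 2311 kb away in CASM34 1, 3847 kb in CASM34 2, 24000 kb in p53WT 1 and 1013 kb in p53WT 2. All were megabases from the gene.

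For CCNG1 (gene 900, chromosome 5, 163437571 to 163457640) they were 3970 kb away in CASM34 1, 2001 kb in CASM34 2, 127 kb in p53WT 1 and 126 kb in p53WT 2. The p53WT summits were nearest to MAT2B, 64918 and 64704 bp from it in p53WT 1 and p53WT 2, and had a −log10 q of 2.45 and 1.72.

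For RCHY1 (gene 25898, chromosome 4, 75479033 to 75514715) the distances were 19244 kb in CASM34 1, 6860 kb in CASM34 2, 1403 kb in p53WT 1 and 158 kb in p53WT 2. The nearest of these, in p53WT 2, lay inside G3BP2 with a −log10 q of 1.35. The absence of MDM4, CCNG1 and RCHY1 from the lists was shared with most genes, since 77.8% of the 20037 protein-coding genes were called in no library.

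**Figure D3:**
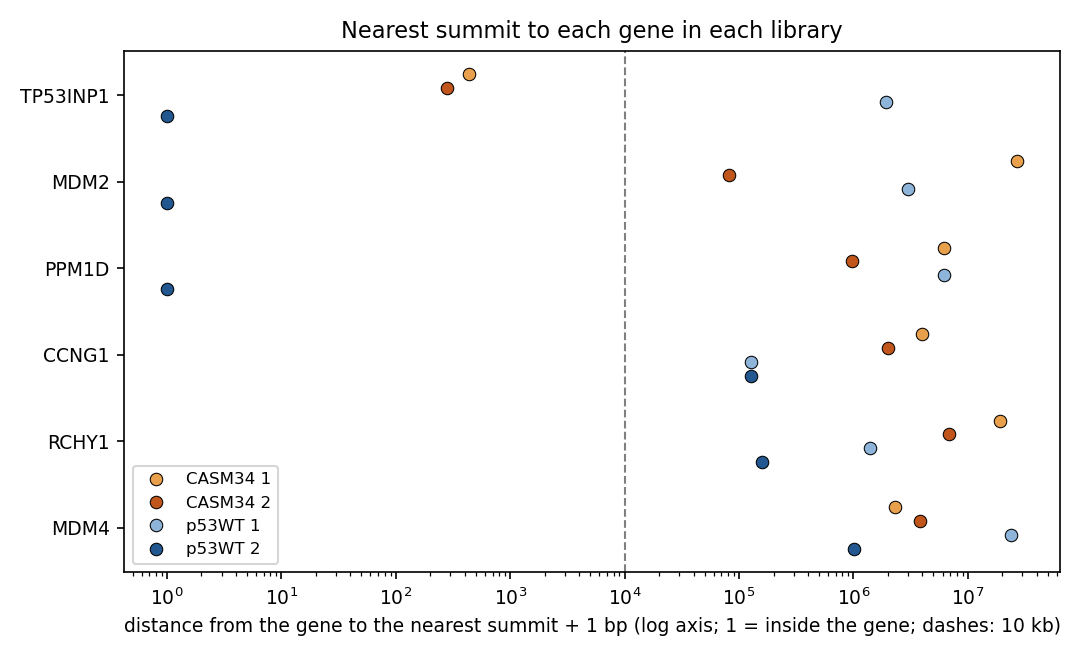
Distance from each of the 6 genes to the nearest summit of each library, plus 1 bp, on a log axis; points at 1 are summits inside the gene and dashes mark 10 kb. TP53INP1 has points left of the dashes in 3 libraries and MDM2 and PPM1D in p53WT 2 alone, while CCNG1, RCHY1 and MDM4 have none.

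By library, 1 of the 6 genes was called in CASM34 1, 1 in CASM34 2, 0 in p53WT 1 and 3 in p53WT 2. The same rule called 1.67% of all protein-coding genes in CASM34 1, 10.9% in CASM34 2, 1.39% in p53WT 1 and 16.2% in p53WT 2. With 6 genes a single one is 16.7% of the group, so CASM34 2 and p53WT 1 were as near to the background as 6 genes allow, and the count of 3 in p53WT 2 rests on MDM2, PPM1D and TP53INP1 alone. The number of genes called averaged 1.0 ± 0.00 in CASM34 and 1.5 ± 2.12 in p53WT (SD, n = 2 each), so the difference of -0.5 was smaller than the spread between the p53WT libraries. Within number 1, CASM34 minus p53WT was 1 gene, and within number 2 it was -2.

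The call of MDM2 and PPM1D in p53WT 2 alone was a frequent pattern, shared by 2065 protein-coding genes, or 10.3%. For each of these 2 genes the difference in summits, CASM34 minus p53WT, was -0.5 (CASM34 0.0 ± 0.00, p53WT 0.5 ± 0.71; SD, n = 2 each). With a single summit in 1 of 4 libraries the exact permutation p can only be 1, so this gives no test. The pattern of TP53INP1, called in both CASM34 libraries and p53WT 2 but not in p53WT 1, was found for 79 genes, or 0.394%. NDUFAF6, which spans TP53INP1 and holds the same summits, was among the 79. The share cannot exceed the 1.67% of genes called in CASM34 1. Among merged regions of the 4 lists, 95 of 7749, or 1.23%, had the pattern. More than 1 summit was listed at TP53INP1 in CASM34 2 and p53WT 2, where 1.48% and 2.46% of protein-coding genes had more than 1.

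Calls depended on the length of the lists and on the threshold. With every list cut to 2054 rows by −log10 p, TP53INP1 was called in CASM34 1 and CASM34 2 and none of the 6 genes in p53WT 1 or p53WT 2, so that the difference in genes called turned to 1. Of all protein-coding genes, 1.36% were then called in CASM34 1, 3.83% in CASM34 2, 1.39% in p53WT 1 and 3.52% in p53WT 2. For TP53INP1 the difference in summits was then 1.5 (exact two-sided permutation p = 0.333, the smallest possible). The strongest TP53INP1 row of p53WT 2 had a −log10 p of 7.80, just under the lowest value of 7.82 kept in that list. At a −log10 q of at least 3, TP53INP1 was called in CASM34 2 and p53WT 2 and no longer in CASM34 1, and MDM2 but not PPM1D was called in p53WT 2. The difference in TP53INP1 summits, CASM34 minus p53WT, was -0.5 there, in the other direction from the equal-length lists. That threshold called 0.958% of protein-coding genes in CASM34 1, 5.54% in CASM34 2, 0.903% in p53WT 1 and 6.48% in p53WT 2.

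Other genes of p53 feedback and modification were also examined, likewise chosen with earlier results of these data known. Of 25 such genes, 0 were called in CASM34 1, 2 in CASM34 2, 0 in p53WT 1 and 8 in p53WT 2, beside the backgrounds of 10.9% in CASM34 2 and 16.2% in p53WT 2. The higher count of p53WT 2 stayed with a window of 2 kb, at 6 genes against 2 in CASM34 2. It did not hold when the lists were cut to fewer rows. At a −log10 q of at least 3 there was 1 gene in CASM34 2 and 1 in p53WT 2. With lists of 2054 rows there was 1 in CASM34 2 and 0 in p53WT 2. Of the 8, 6 had the calls of MDM2 and PPM1D, in p53WT 2 alone: CDKN2A, which encodes the MDM2 inhibitor ARF, the deacetylase gene SIRT1, TP53BP1, the p38 kinase gene MAPK14, and RPL11 and RPL5, whose ribosomal proteins bind MDM2. None shared the pattern of TP53INP1. The 8 summits of p53WT 2 had a −log10 q of 1.31 to 3.54 with a median of 1.58. MAPK14, at 3.54, stood level with the MDM2 row at 3.50, and RPL5, at 2.82, with the PPM1D row, while the other 6 were lower than both.

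TRIM24, a ubiquitin ligase for p53, and KAT5, an acetyltransferase that acts on p53, were called in CASM34 2 and in p53WT 2 alone, as were 4.20% of protein-coding genes. The TRIM24 peaks ran from 138460540 to 138460772 in CASM34 2 (−log10 q 3.80) and from 138460793 to 138461184 in p53WT 2 (−log10 q 2.64) on chromosome 7, and did not overlap. The KAT5 summits were 830 bp outside the gene in CASM34 2 and 8534 bp outside it in p53WT 2, with −log10 q of 1.42 and 1.35. Neither gene therefore had overlapping peaks between the libraries, as TP53INP1 did. Lack of overlap was common over the whole lists. Of the 7749 merged regions, 20.4% were in CASM34 2 alone and 41.7% in p53WT 2 alone, while 7.63% were in these 2 libraries and no other. The TRIM24 peaks still lay close together, with summits 368 bp (CASM34 2) and 741 bp (p53WT 2) inside the same end of the gene.

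**Figure D4:**
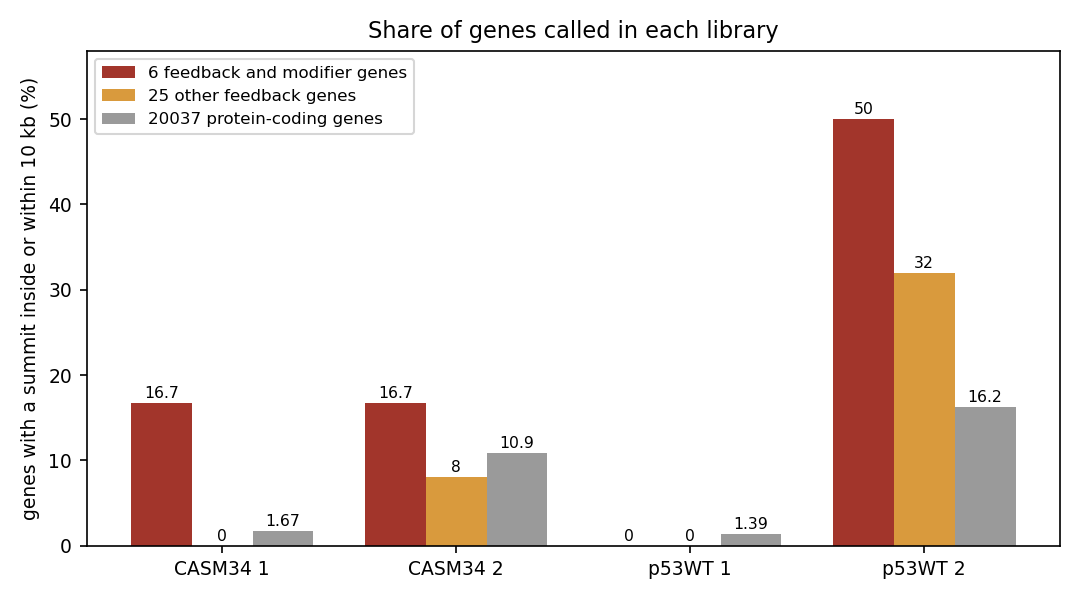
Share of genes (%) with a summit inside or within 10 kb in each library, for the 6 feedback and modifier genes, the 25 other feedback genes and all 20037 protein-coding genes. The bars of p53WT 2 are the highest of each kind, at 3 of 6 genes, 8 of 25 genes and 16.2%, and p53WT 1 has 0 in both gene lists.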

How the data were processed

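The 4 libraries were processed by the authors with Trim Galore, Bowtie2 and bedtools on GRCh38, per the submitters' processing notes. Which program called the peaks, against what control and at what threshold is not given in the sources used here. Each deposited list is of 1 library. A row holds a peak, a summit, a fold, the deposited −log10 of its p-value and of its q-value, and a score. The fold is the deposited signal value, read here as a ratio of signal over background. The score, also deposited, is about 10 times the −log10 q and was not used. The lowest deposited −log10 q was 1.30 to 1.31. The lists give no counts, so depth and counting error are unknown.

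Coordinates are 1-based on GRCh38. Summits were set against 20037 protein-coding RefSeq genes (GRCh38.p14, chromosomes 1 to 22, X and Y). Peaks sharing at least 1 bp were merged. The genome sequence of the peaks was not used here. The search for p53 sites used 250 bases before each RefSeq start, and the full-site rule was chosen after the sequences were seen.

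The 6 genes and the list of 25 were chosen with earlier results of these data known. All 6 are named; of the 25, those called in 2 or more libraries or with the calls of one of the 6, and any neighbour closer to a summit; the rest are counted. Summits per gene were compared by an exact two-sided permutation test. No p is given for the group of 6. Alternatives were windows of 2 and 50 kb, a −log10 q of at least 3, lists of equal length, each interval once, each library left out, an overlap of 50% of the shorter peak, and differences within library number. Calls were checked on simulated summits: of 200 genes per library all 200 matched a direct count. Python 3.11.15, numpy 2.4.6, pandas 2.3.3 and scipy 1.17.1 were used.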

Additional observations from a re-analysis of the deposited data

How the results depend on the processing

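Of 54 recomputed counts, 9 moved by more than 1.5 times or to 0. Of 70 recomputed differences, 17 moved by more than 1.5 times, to 0, away from 0 or in sign, 2 of them in sign. With lists of 2054 rows the difference in summits went to 0 for MDM2 and PPM1D and to 1.5 for TP53INP1, and with the window of 50 kb it went to -1 for PPM1D. The difference in summits also went to 0 for PPM1D and to -0.5 for TP53INP1 at a −log10 q of at least 3. With lists of 2054 rows the 6 genes called and their summits in p53WT 2 were 0 and 0, the difference in genes called, CASM34 minus p53WT, turned from -0.5 to 1, and the other feedback genes called were 1 in CASM34 2 and 0 in p53WT 2. At a −log10 q of at least 3, genes called and summits in CASM34 1 were 0 and 0, and other feedback genes were 1 in CASM34 2 and 1 in p53WT 2. With each interval counted once, CASM34 2 had 1 summit in place of 2. The shorter lists and stricter threshold hold fewer rows by construction. Leaving out each library gave a difference in genes called of -2 to 1; it was -2 without p53WT 1 and turned to 1 without p53WT 2. Summits at MDM2 and PPM1D differed by -1 to 0 and those at TP53INP1 by -1.5 to 1.5, lowest without p53WT 1 and highest without p53WT 2. The windows of 2 and 50 kb changed none of the 6 genes' calls. The region at TP53INP1 remained the 1 shared region at an overlap of 50% of the shorter peak. It also remained so at the stricter threshold, but there between CASM34 2 and p53WT 2 only, without CASM34 1.

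Library numbers are not said to pair samples. Deviations of number 1 from number 2 in summits per protein-coding gene correlated between groups with r = 0.34 across 20037 genes, which are not independent replicates. With the replicate block the differences were -0.5 genes called, -0.5 summits for MDM2 and PPM1D and 0 for TP53INP1, the means being the same by construction. With 2 pairs the exact sign-flip p cannot go below 0.5, and where 1 of the pairs differs by 0, as at MDM2 and PPM1D, it can only be 1, so the block gives no test.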
